A study of Zea mays with 12 samples.

Results

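A group of 54 chromatin genes was followed in immature maize ears, chosen by the form of their names. The names follow the style of ChromDB, a plant chromatin database: 2 to 4 letters for the protein family and a number from 100 to 199, as in hda102 or hag101. A probe set, the group of short probes that reports 1 transcript on an Affymetrix array, belonged to the group when a symbol or synonym of its gene had that form. The pattern found 65 genes of the 1108 named on the array, with 86 probe sets of the 1452 that carry 1 gene name. Of these, 54 genes with 70 probe sets had a family prefix of a chromatin protein, and 11 genes with 16 probe sets matched for another reason, for example as clone or map names. The results below are about the 54 chromatin genes unless stated otherwise.

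DNA in the nucleus is wound around histone proteins, and cells open or close that packing by adding or removing chemical groups on histones and on the DNA itself. Histone acetyltransferases add acetyl groups and are commonly tied to active genes, histone deacetylases remove them, SET-domain proteins methylate histones, and DNA methyltransferases methylate cytosines. Other proteins read those marks (bromodomain and methyl-CpG-binding proteins) or carry, assemble and link histones (nucleosome assembly proteins, WD40 histone-binding proteins, the FACT complex, HMG-box proteins and linker histone H1).

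The study compared field-grown plants of 4 genotypes: the reciprocal F1 hybrids B73xMo17 and Mo17xB73 and their parents, the inbred lines B73 and Mo17. Each genotype had 3 biological replicates with 1 array each, so 12 arrays in all, and each replicate was a pool of 6 ears, 3.7 to 5.4 mm long, with husks and silks taken off. No treatment was given, and the genotype is the only difference that the labels state between the groups. Because ears were pooled and ground whole, fewer cells of a type and less RNA per cell cannot be told apart. Probe sequences were not at hand, so whether the probes match B73 and Mo17 transcripts equally was not checked. The p-values measure the spread between these pools, and 3 arrays per genotype limit the precision of every value.

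The deposited arrays did not share a level: their median signal ran from 123 (Mo17 replicate 1) to 231 (B73 replicate 2). Every array was therefore scaled to 1 common median, and signals below are scaled signals in array units. "As deposited" marks the same test without scaling. After scaling, the median of all tested probe sets stood at -0.05 (log2, B73 minus Mo17), and as deposited it stood at 0.28. Array B73 replicate 2 stood apart at low signals, with a 1st percentile of 3.90 against 0.455 to 0.647 on the other arrays. Among markers of the labelled tissue, 10 of 11 probe sets for inflorescence and floral genes passed the filter on low signals, and the MADS-box gene zmm2 sat at the floor on all arrays. The median signal percentile was 64.0 for these markers, 47.7 for 9 green tissue, 18.0 for 13 endosperm and 12 for 3 pollen probe sets, of which 7, 4 and 0 passed the filter. The summed signal of the inflorescence markers was 8059 to 9019 on B73 arrays and 6498 to 7319 on Mo17 arrays. Its 10 tested members went both ways, with 6 higher and 2 lower in B73 after scaling, among the lower the meristem gene KN-1 (log2 -0.72, adjusted p = 0.000412). The part of these markers in the chromatin results was not tested. For the green tissue markers the sums overlapped, at 1279 to 1919 on B73 arrays and 1844 to 1977 on Mo17 arrays. Single members went both ways after scaling. Cab-m7 (log2 -0.77, limma adjusted p = 0.00227) and psaN (-0.59, adjusted p = 0.00274) were lower in B73. C4ppdkZm1 probe set Zm.4471.4.A1_at was higher (0.90, adjusted p = 0.000178), and the other tested members did not pass.

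Of the 70 chromatin probe sets, 65 passed the filter, and they covered all 54 genes. The 5 that did not were second probe sets of hda113, sdg110, sdg113 and dmt105, and their mean signals lay between 12.4, the floor of the scale, and 34.3. Replicates of the chromatin probe sets lay close together, with a median standard deviation (SD) within genotypes of 0.12 on the log2 scale, against 0.14 over all 11126 probe sets tested.

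The first comparison asked how far the inbred parents differ. In B73 ears, the largest differences from Mo17 were in cha101 and in genes for histone acetylation. The acetyltransferases hac108 and hag101 were at least 2-fold higher, and the adaptor hxa102 and its family partner hxa103 were 1.67-fold and 1.75-fold higher. Most other families had at most 1 probe set higher and at most 2 lower, and the WD40, Polycomb VEF and linker histone families had none. The linker histone family here holds hon101 and hon102 only, and another histone H1 gene is given below. Between B73 and Mo17, 9 of the 65 probe sets were higher and 11 lower in B73 at an adjusted p under 0.05 (limma, Benjamini-Hochberg over all probe sets). These shares, 13.8% and 16.9%, lay below those of all probe sets, 19.5% higher and 21.5% lower. As deposited, 11 chromatin probe sets were higher (16.9%) and 0 lower, against 20.5% higher and 5.07% lower over all probe sets. Changing the scale added the same 0.33 to nearly every log2 difference. The part of that shift in which calls were kept was not tested. The 9 higher calls passed on both scales and the 11 lower calls only after scaling. Relative to the median of all probe sets, the 11 lower ones stood at -0.55 to -0.19 on both scales. Among these 11, B73 replicate 2 was the lowest B73 array in 9, and Mo17 replicate 1 was the highest Mo17 array in 7. Scaling multiplied B73 replicate 2 by the smallest factor of all arrays (0.752) and Mo17 replicate 1 by the largest (1.303). Many of the 11 lower calls thus lean on the same arrays and are not separate observations. The 2 added as deposited were the methyl-CpG-binding genes mbd101 and mbd109. At an unadjusted p under 0.05, 27 of the 65 passed after scaling (41.5%) and 16 as deposited (24.6%), against 48.4% and 34.9% over all probe sets.

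The differences were mostly small. The median log2 difference was -0.02 in the chromatin probe sets and -0.05 over all probe sets, and the median size without its sign was 0.16 against 0.25. Parents lay within 1.5-fold of each other in 58 of the 65, and 3 passed with a difference of 2-fold or more: cha101, hac108 and hag101. The matching shares over all probe sets were not counted, so neither count shows anything particular to chromatin genes. The arrays of B73 and Mo17 did not overlap in any of the 20 probe sets that passed, which belong to 20 genes. The share over all probe sets was not counted, so this adds no separate support to the calls. Arrays of the parents also did not overlap in some members that did not pass, such as hac106 and hon101. Without B73 replicate 2, the array that stood apart, 12 probe sets were higher and 5 lower, and 13 of the 20 calls were kept. Without Mo17 replicate 1, 9 were higher and 7 lower, and 15 of the 20 calls were kept.

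**Figure D1:**
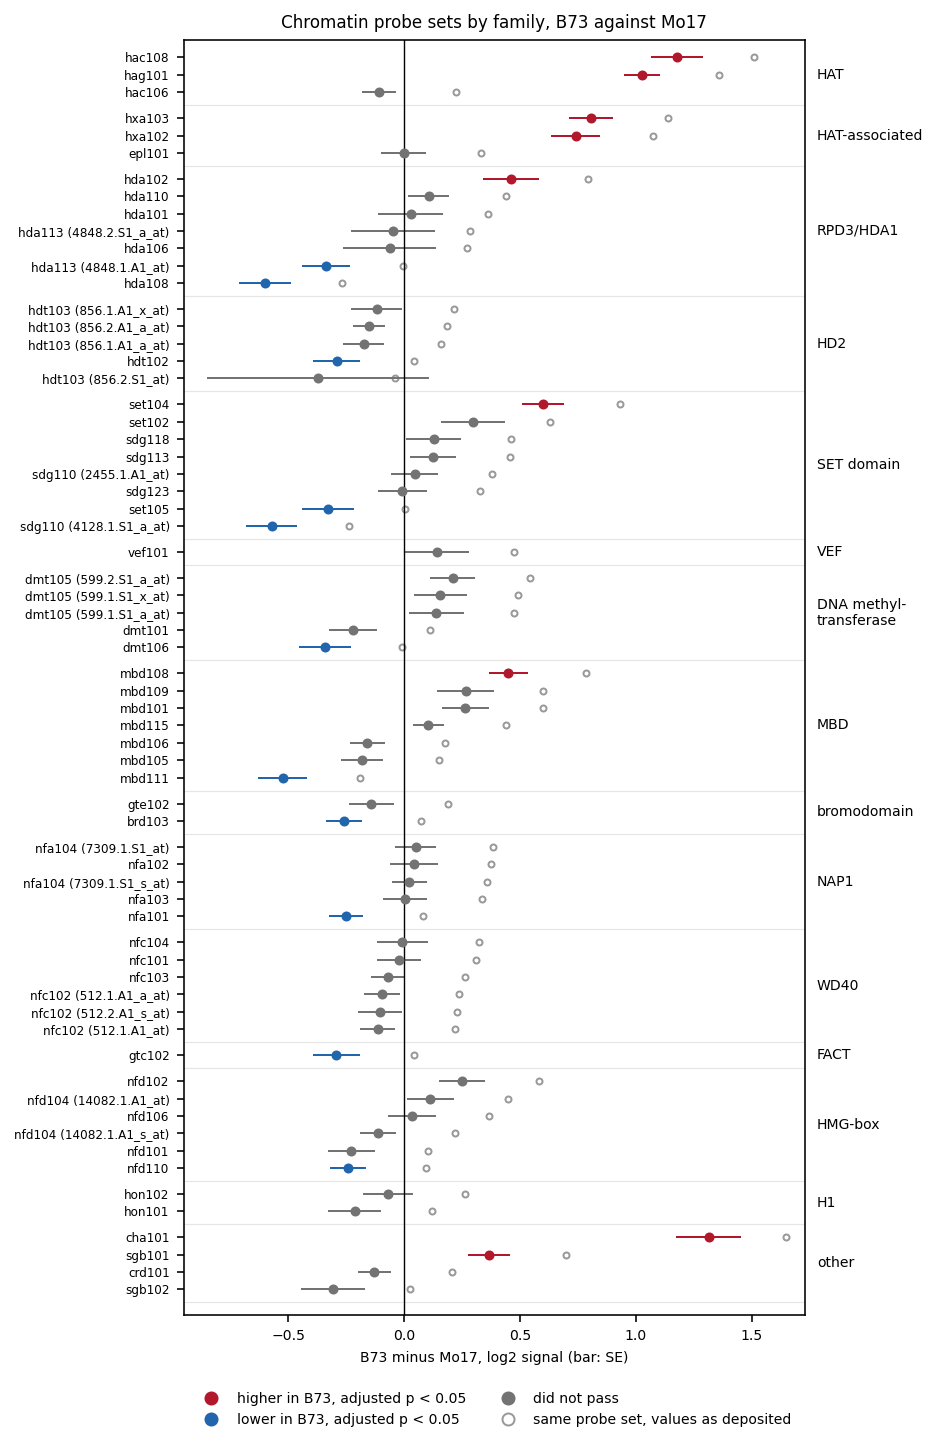
B73 minus Mo17 difference in log2 signal for the 65 chromatin probe sets tested, grouped by family. Filled points with bars are differences with their standard error (SE) after scaling, and open circles are the same probe sets as deposited. The 9 higher probe sets (red) lie right of 0 both ways, and the 11 lower ones (blue) move towards or past 0 as deposited, where none of them passed; open circles sit 0.33 to the right of the filled points throughout.

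Histone acetyltransferases were measured with 3 probe sets, and 2 of the 3 were higher in B73. The gene hac108, also listed as ham101, is a histone acetyltransferase. Its signal was 619, 581 and 719 on the 3 B73 arrays, against 327, 254 and 270.3 on the Mo17 arrays. In hybrids hac108 read 491, 479 and 552 in B73xMo17 and 499.6, 559 and 558 in Mo17xB73. All 3 B73 arrays were above every Mo17 array, and the hybrid arrays fell in the gap between them. The B73 level was 2.26-fold that of Mo17 (log2 difference 1.18 ± 0.11 SE, n = 3 each, limma adjusted p = 1.27e-06). The gene hag101 encodes GCN5, the acetyltransferase of SAGA-type coactivator complexes. It read 750.2, 656 and 766 in B73 and 346, 354 and 366 in Mo17, with Mo17 arrays close together and far below B73. B73xMo17 ears gave 648, 675 and 641 for hag101, and Mo17xB73 ears gave 565, 601 and 587. These hybrid arrays also lay above all Mo17 arrays, and 1 B73 array fell within the range of B73xMo17. The difference between B73 and Mo17 was 2.04-fold (log2 1.03 ± 0.077, adjusted p = 1.08e-07). The third gene, hac106 (hat1), had a log2 difference of -0.11 ± 0.072 and did not pass (adjusted p = 0.256).

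Proteins that work with acetyltransferases gave 3 probe sets, of which 2 were higher in B73. ADA2, the adaptor that joins GCN5 in yeast and plants, is encoded by hxa102. Signals for hxa102 were 804, 649 and 847 in B73 and 435, 456 and 478 in Mo17. Both hybrids lay above Mo17, at 630.1, 567 and 539.6 in B73xMo17 and 671, 586 and 588 in Mo17xB73. The parents differed 1.67-fold (log2 0.74 ± 0.11, adjusted p = 6.6e-05). The gene hxa103, listed under the same prefix, read 477, 429 and 489 in B73 against 289, 271 and 239 in Mo17. Hybrid levels of hxa103 were 388, 424 and 397 in B73xMo17 and 406, 459 and 398 in Mo17xB73, above all Mo17 arrays, with 5 of the 6 also below all B73 arrays. Its parental difference was 1.75-fold (log2 0.81 ± 0.096, adjusted p = 1.22e-05). For epl101, an enhancer of polycomb-like protein, the difference was -0.0017 ± 0.098 (adjusted p = 0.99), with overlapping arrays. On the acetylation side, 4 of the 6 probe sets were higher in B73 and 0 lower, against 19.5% and 21.5% of all probe sets. This count leaves out sgb101 and sgb102, listed also as GNAT17 and GNAT19, as hag101 is listed as GNAT6. Their role was not given in the sources used. In B73, sgb101 was higher (log2 0.36), and sgb102 stood at -0.31 and did not pass (adjusted p = 0.0931). The genes hac108, hag101, hxa102 and hxa103 kept their calls in all 21 alternative settings.

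Histone deacetylases of the RPD3/HDA1 type were measured with 7 probe sets of 6 genes, of which 1 was higher and 2 lower in B73 after scaling. The deacetylase hda102 had signals of 654, 490.3 and 505 in B73 and 349, 393 and 454 in Mo17. All B73 arrays of hda102 exceeded those of Mo17, although B73 replicate 1 was well above the other B73 arrays. Hybrid values were 449, 491 and 527 in B73xMo17 and 518, 509 and 482 in Mo17xB73. The parents differed 1.38-fold (log2 0.46 ± 0.12, adjusted p = 0.00771), a call that was lost when no filter on low signals was used and the arrays were rescaled over all probe sets (0.37, adjusted p = 0.108). That setting moved the parental difference by -0.087. With no filter but the same scaling, hda102 passed (adjusted p = 0.0249). In the opposite direction, hda108 read 391, 357 and 392 in B73 and 556, 571 and 599 in Mo17. The B73 arrays were all below the Mo17 arrays. Hybrid arrays of hda108 were all above B73, with 457, 555 and 493 in B73xMo17 and 423, 490.2 and 581 in Mo17xB73. The log2 difference of hda108 was -0.60 ± 0.11 after scaling (adjusted p = 0.000639) and -0.27 as deposited (adjusted p = 0.46).

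The gene hda113 had a pair of tested probe sets, of which 1 passed. Probe set Zm.4848.1.A1_at read 218, 182 and 210.4 in B73 and 289, 242 and 241 in Mo17, and 244, 248 and 259.9 in B73xMo17 and 234, 235 and 242 in Mo17xB73. Mo17 replicate 1 was the high array, and the other Mo17 arrays lay within the range of the hybrids. The difference was -0.34 ± 0.10 after scaling (adjusted p = 0.0173) and -0.0046 as deposited. The call was lost without B73 replicate 2 (adjusted p = 0.0614) or Mo17 replicate 1 (0.0724). The other hda113 probe set, Zm.4848.2.S1_a_at, differed by -0.047 ± 0.18 (adjusted p = 0.861) with overlapping arrays. Its 95% interval of -0.44 to 0.34 holds the value of the first, and the difference between the pair was not tested. Affymetrix gives the endings _a_at, _s_at and _x_at to probe sets whose probes can match more than 1 transcript. Such values are less certainly those of a single transcript. Whether the matched transcripts belong to 1 gene was not checked, as probe sequences were not at hand. The remaining members hda101 (rpd3), hda106 and hda110 had differences of 0.028, -0.063 and 0.11 and did not pass.

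HD2-type deacetylases, a family known from plants, had 5 probe sets of 2 genes, with 0 higher and 1 lower in B73 after scaling. The passing member hdt102 (HD2b) read 3792, 3292 and 3711 in B73, against 4209, 4465 and 4515 in Mo17. Hybrid arrays gave 4768, 4093 and 3918 in B73xMo17 and 4004, 3793 and 4769 in Mo17xB73 and reached above both parents on 1 array of each cross. The difference was -0.29 ± 0.10 after scaling (adjusted p = 0.035) and turned to 0.042 as deposited. The hdt102 call was lost without B73 replicate 2, B73 replicate 3, Mo17 replicate 2 or Mo17 replicate 3, with adjusted p-values of 0.121, 0.0568, 0.0878 and 0.095 in that order. The 4 probe sets of hdt103 had differences from -0.37 to -0.12 and none passed. Of these, Zm.856.2.S1_at was the least precise in the group, with an SE of 0.48. Over both deacetylase families, 1 of 12 probe sets was higher and 3 were lower in B73 after scaling. Over all probe sets the shares were 19.5% and 21.5%. The acetyltransferase and deacetylase families were not tested against each other.

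SET-domain proteins, the class that holds most histone lysine methyltransferases, were represented by 8 probe sets of 7 genes. Of these, 1 was higher and 2 lower in B73 after scaling, against 19.5% and 21.5% of all probe sets. Signals of set104 were 548, 553 and 614 in B73 and 406, 355 and 372 in Mo17. Hybrid arrays read 399.7, 451 and 468 in B73xMo17 and 415, 462 and 439 in Mo17xB73 for set104, nearer to Mo17. B73 exceeded Mo17 1.51-fold (log2 0.60 ± 0.09, adjusted p = 0.000107), in all 21 alternative settings as well. For sdg110, probe set Zm.4128.1.S1_a_at gave 126, 156 and 126 in B73 and 192, 205 and 207 in Mo17. The hybrids were tightly grouped between the parents, at 161, 166 and 159 in B73xMo17 and 172, 158 and 165 in Mo17xB73. This difference was -0.57 ± 0.11 after scaling (adjusted p = 0.000848) and -0.24 as deposited (adjusted p = 0.535). A second tested probe set of sdg110, Zm.2455.1.A1_at, differed by 0.045 ± 0.10 (adjusted p = 0.753); the difference between the pair was not tested.

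The gene set105 read 1061, 1110.2 and 1108 in B73 and 1671, 1199 and 1286 in Mo17, where replicate 1 alone was far above the others. Its hybrid values were 1179, 1220.2 and 1116 in B73xMo17 and 1079, 1291 and 1258 in Mo17xB73. The difference was -0.33 ± 0.11 after scaling (adjusted p = 0.0305) and turned to 0.0059 as deposited. Leaving out B73 replicate 1, 2 or 3 or Mo17 replicate 1 ended the call, with adjusted p-values of 0.0846, 0.0551, 0.06 and 0.119 in that order. Without Mo17 replicate 1 the log2 difference of set105 was -0.18. The other members sdg113, sdg118, sdg123 and set102 ranged from -0.01 to 0.30 and did not pass. The Polycomb protein gene vef101, of the EMF2-like group that takes part in histone H3 methylation, read 324, 403 and 311 in B73 and 374, 283 and 288 in Mo17. In hybrids, vef101 gave 362, 325 and 279 in B73xMo17 and 389.9, 389 and 333 in Mo17xB73. Arrays of all 4 genotypes overlapped, and the parental difference of 0.14 ± 0.14 did not pass (adjusted p = 0.456).

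DNA methyltransferases had 5 probe sets of 3 genes. After scaling 0 were higher and 1 lower in B73, against 19.5% and 21.5% of all probe sets. The gene dmt106 read 451, 373 and 475 in B73 and 560.2, 550.0 and 528 in Mo17. B73xMo17 ears gave 604, 497 and 484 and Mo17xB73 ears gave 562, 482 and 498 for dmt106, with replicate 1 of each cross above all Mo17 arrays. The difference was -0.34 ± 0.11 after scaling (adjusted p = 0.0237) and -0.0083 as deposited. It was lost without B73 replicate 2 (adjusted p = 0.1), Mo17 replicate 1 (0.0571) or Mo17 replicate 2 (0.058). The maintenance methyltransferase gene dmt101 (met1) had a difference of -0.22 ± 0.10 and did not pass (adjusted p = 0.106). The 3 probe sets of the chromomethylase gene dmt105 (Zmet5) lay between 0.14 and 0.21 in B73 minus Mo17, and none passed.

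Methyl-CpG-binding domain proteins, whose animal relatives bind methylated DNA, had 7 probe sets of 7 genes. After scaling 1 was higher and 1 lower in B73, against 19.5% and 21.5% of all probe sets. Signals of mbd108 were 954, 866 and 862 in B73 and 675, 694 and 596 in Mo17. In hybrids, mbd108 read 721, 733 and 774 in B73xMo17 and 849, 810.4 and 741 in Mo17xB73, all below the highest B73 array and above the highest Mo17 array. The parents differed 1.37-fold (log2 0.45 ± 0.084, adjusted p = 0.000659), and this call held in all 21 alternative settings. For mbd111 the signals were 789, 669 and 805 in B73 and 1270.4, 1004 and 987 in Mo17, with Mo17 replicate 1 the highest. Hybrid ears gave 906, 985 and 927 in B73xMo17 and 996, 895 and 889 in Mo17xB73, between the parental means. The mbd111 difference was -0.52 ± 0.11 after scaling (adjusted p = 0.00124) and -0.19 as deposited (adjusted p = 0.597). The other members, mbd101, mbd105, mbd106, mbd109 and mbd115, ranged from -0.18 to 0.27.

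Among bromodomain proteins, which bind acetylated histones, brd103 was lower in B73 after scaling and gte102 did not pass. The values of brd103 were 432, 399.9 and 449 in B73 and 496, 510.0 and 525 in Mo17. Hybrid means of brd103 lay between the parental means, with arrays at 455, 464 and 427 in B73xMo17 and 471, 454 and 501 in Mo17xB73. The brd103 difference was -0.26 ± 0.078 after scaling (adjusted p = 0.0163) and turned to 0.074 as deposited. It was lost without B73 replicate 2 (adjusted p = 0.0558) or Mo17 replicate 3 (0.0546). For gte102 the difference was -0.14 ± 0.097 (adjusted p = 0.271).

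Histone carriers and assembly factors showed small differences. Of 5 probe sets of 4 NAP1-type nucleosome assembly genes, 0 were higher and 1, nfa101, was lower in B73 after scaling. The shares over all probe sets were 19.5% and 21.5%. The nfa101 signals were 2469, 2356 and 2604 in B73 and 3018, 2909 and 2905 in Mo17, tightly grouped in each. Both hybrids lay above all B73 arrays and near Mo17, at 2964, 2859 and 2733 in B73xMo17 and 2896, 2823 and 3186 in Mo17xB73. The nfa101 difference was -0.25 ± 0.073 after scaling (adjusted p = 0.0137) and turned to 0.082 as deposited. The other 4 probe sets of this family lay between 0.00 and 0.05. WD40 histone-binding proteins of the MSI1 and RbAp type sit in assembly, deacetylase and Polycomb complexes. They had 0 of 6 probe sets past the limma threshold and 0 at an unadjusted p under 0.05. Over all probe sets 19.5% passed higher, 21.5% passed lower and 48.4% had an unadjusted p under 0.05. The family was not tested against these shares. The smallest p in this family belonged to nfc102 probe set Zm.512.1.A1_at, with 3555, 3212 and 3546 in B73 and 3421, 3843 and 3909 in Mo17. Its hybrids read 3831, 3582 and 3533 in B73xMo17 and 3482, 3553 and 3667 in Mo17xB73, and all genotypes overlapped. The nfc102 difference was -0.11 ± 0.077 (adjusted p = 0.261), and the 6 probe sets ranged from -0.11 to -0.01.

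The FACT complex, which loosens nucleosomes in front of RNA polymerase, is made of SPT16 and SSRP1, encoded by gtc102 and nfd110. SPT16 (gtc102) read 1412, 1155 and 1436 in B73 and 1880.3, 1520.4 and 1503 in Mo17, where replicate 1 was high. Hybrids gave 1416, 1379 and 1326 in B73xMo17 and 1496, 1409 and 1421 in Mo17xB73, all below the Mo17 arrays and overlapping B73. The gtc102 difference was -0.29 ± 0.10 after scaling (adjusted p = 0.0334) and turned to 0.041 as deposited. It was lost without B73 replicate 2 (adjusted p = 0.143) or Mo17 replicate 1 (0.135), with log2 differences of -0.19 in both. SSRP1 (nfd110) read 1347, 1152 and 1251 in B73 and 1551, 1437 and 1436 in Mo17. Its hybrid signals were 1438, 1292 and 1312 in B73xMo17 and 1421, 1379 and 1331 in Mo17xB73, overlapping both parents. The nfd110 difference was -0.24 ± 0.078 after scaling (adjusted p = 0.024) and turned to 0.092 as deposited. Leaving out B73 replicate 2, B73 replicate 3 or Mo17 replicate 1 ended the call, with adjusted p-values of 0.091, 0.0548 and 0.0722 in that order.

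By its prefix nfd110 belongs to the HMG-box family of 6 probe sets and 5 genes. Of these, 0 were higher in B73 and only nfd110 was lower, against 19.5% and 21.5% of all probe sets. The others, nfd101, nfd102, nfd104 and nfd106, ranged from -0.23 to 0.25, and the pair of nfd104 probe sets had opposite signs (0.11 and -0.11) without passing. Linker histones, which close the DNA around a nucleosome, had 0 of 2 probe sets past the limma threshold and 0 at an unadjusted p under 0.05. Over all probe sets 48.4% had an unadjusted p under 0.05. A further histone H1 gene, from a separate list, is given below. Signals of hon101 were 5482, 4634 and 5063 in B73 and 5599, 5790.1 and 6181 in Mo17. Hybrid hon101 values were 7349, 5502 and 5305 in B73xMo17 and 6077, 5622 and 6260.4 in Mo17xB73, with B73xMo17 replicate 1 above every other array. All B73 arrays of hon101 were below those of Mo17, yet the difference of -0.21 ± 0.11 did not pass (adjusted p = 0.159). The second linker histone, hon102 (his1a), differed by -0.069 ± 0.11.

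The remaining prefixes, cha, crd and sgb, had 4 probe sets. Of these, 2 were higher in B73 and 0 lower, against 19.5% and 21.5% of all probe sets. The largest parental difference of all 65 probe sets was that of cha101. Its signal was 354, 352 and 316 in B73, against 126, 175 and 117 in Mo17. The hybrid values, 251, 206 and 227 in B73xMo17 and 243, 264 and 237 in Mo17xB73, filled the middle of the range and overlapped neither parent. B73 exceeded Mo17 2.48-fold in cha101 (log2 1.31 ± 0.14, adjusted p = 4.07e-06), also in all 21 alternative settings. For sgb101 the signals were 512, 457 and 438 in B73 and 347, 394 and 352 in Mo17. Hybrid signals of sgb101 were 478, 437 and 416 in B73xMo17 and 414, 437 and 454 in Mo17xB73. The sgb101 difference was 1.29-fold (log2 0.36 ± 0.091, adjusted p = 0.00551) and was lost without the filter when the arrays were rescaled over all probe sets (0.28, adjusted p = 0.0551), but not with the same scaling (adjusted p = 0.00734). The other members crd101 and sgb102 differed by -0.13 and -0.31 and did not pass.

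**Figure D2:**
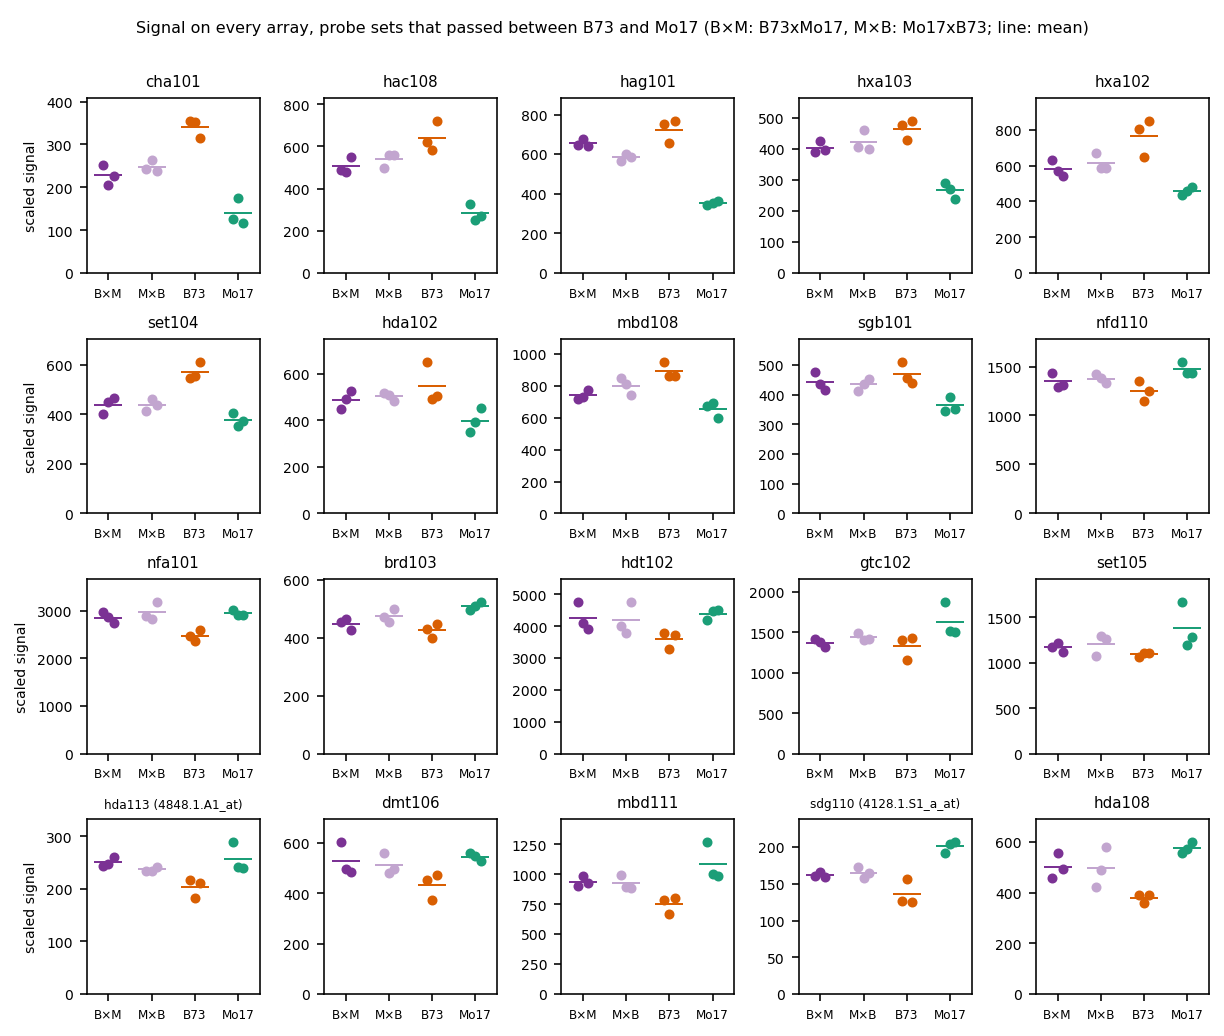
Scaled signal on every array for the 20 chromatin probe sets that passed between B73 and Mo17, in B73xMo17 (B×M), Mo17xB73 (M×B), B73 and Mo17 ears; points are arrays and lines are means of 3. Panels run from the most positive to the most negative difference: the first 9 are higher in B73, and the other 11 are lower in B73 after scaling but did not pass as deposited. Hybrid means lie between the parental means in all panels but nfa101, where Mo17xB73 is slightly above Mo17.

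The second comparison asked whether the hybrids had the level expected if the parents contributed equally, as the study's title raises additive expression. The midparent is the mean of the parental levels on the linear scale. For chromatin genes, 0 of 65 probe sets passed in mean hybrid minus midparent (limma, smallest adjusted p = 0.111). Over all probe sets 0.800% were higher and 0.494% lower. At an unadjusted p under 0.05, 9 chromatin probe sets (13.8%) were above the midparent and 0 below, against 6.07% above and 6.94% below over all probe sets. The median was 0.04 in the chromatin probe sets and -0.01 over all probe sets, and as deposited it was -0.05 against -0.10. Hybrid means lay above the midparent in 42 of 65 chromatin probe sets (64.6%), against 47.4% of all probe sets. All 6 hybrid arrays were above the midparent in 13 chromatin probe sets and below it in 2. The share over all probe sets was not counted for this, so no excess in chromatin genes can be read from it. As deposited, 0 of 65 passed in limma, against 0.261% higher and 0.521% lower over all probe sets, and 0 had an unadjusted p under 0.05, against 4.75%.

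The smallest p belonged to hag101, the GCN5 gene. Its hybrid arrays, given above, averaged 655 ± 18.1 in B73xMo17 and 584 ± 18.1 in Mo17xB73 (SD, n = 3 each), and all 6 lay above the midparent of 539. The difference was 0.20 ± 0.056 on the log2 scale (unadjusted p = 0.00358, adjusted p = 0.111). The acetyltransferase hac108 was above its midparent of 459.6 on 6 of 6 hybrid arrays, by 0.18 ± 0.082 (adjusted p = 0.362). For hxa103 the midparent was 365, and the hybrids differed from it by 0.17 ± 0.069, also on 6 of 6 arrays (adjusted p = 0.294). The other 6 of the 9 were single probe sets of sdg110, dmt105, nfd106, hon102, hdt103 and nfc104, with differences of 0.17 to 0.22. When the midparent was taken as the mean of the log2 levels, hag101 and hac108 passed, at 0.29 (adjusted p = 0.00371) and 0.30 (adjusted p = 0.0332). A log2 mean lies below the linear mean wherever the parents differ. These passes are therefore not separate evidence that the hybrids exceeded equal parental contributions. With quantile normalization hon102 passed, at 0.13 (adjusted p = 0.0466).

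The level of a hybrid can be put on a line where the lower parent is at -1, the midparent at 0 and the higher parent at 1. Among the 20 probe sets that passed between the parents, the mean hybrid stood between -0.47 (gtc102) and 0.84 (nfa101), with a median of 0.15. The B73xMo17 mean lay between the parental means in 20 of 20 and the Mo17xB73 mean in 19 of 20. These 20 were chosen for their parental difference, and the share among all probe sets that passed was not counted. The counts therefore show nothing particular to chromatin genes. The 95% confidence interval of mean hybrid minus midparent lay within 1.5-fold in 64 of the 65 probe sets. The exception was hdt103 probe set Zm.856.2.S1_at, with an interval from -0.49 to 0.97.

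The third comparison set the reciprocal hybrids side by side; they have the same parents and differ in which of them bore the seed. No chromatin probe set passed: limma called 0 of 65 at an adjusted p under 0.05, and 0 had an unadjusted p below the same limit. Over all probe sets 0% passed higher and 0% lower, and 2.59% had an unadjusted p under 0.05. Differences in B73xMo17 minus Mo17xB73 ran from -0.24 to 0.16 on the log2 scale, at most 1.18-fold. The smallest p was that of hag101, with 648, 675 and 641 in B73xMo17 and 565, 601 and 587 in Mo17xB73. These arrays did not overlap, but the difference of 0.16 (95% interval -0.0022 to 0.33) did not pass (unadjusted p = 0.0527, adjusted p = 1.00). In 63 of the 65 probe sets the 95% interval lay within 1.5-fold, so larger differences between the crosses were outside it. The widest was again Zm.856.2.S1_at of hdt103, from -1.20 to 0.85, and the other 64 intervals lay between -0.63 and 0.57.

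**Figure D3:**
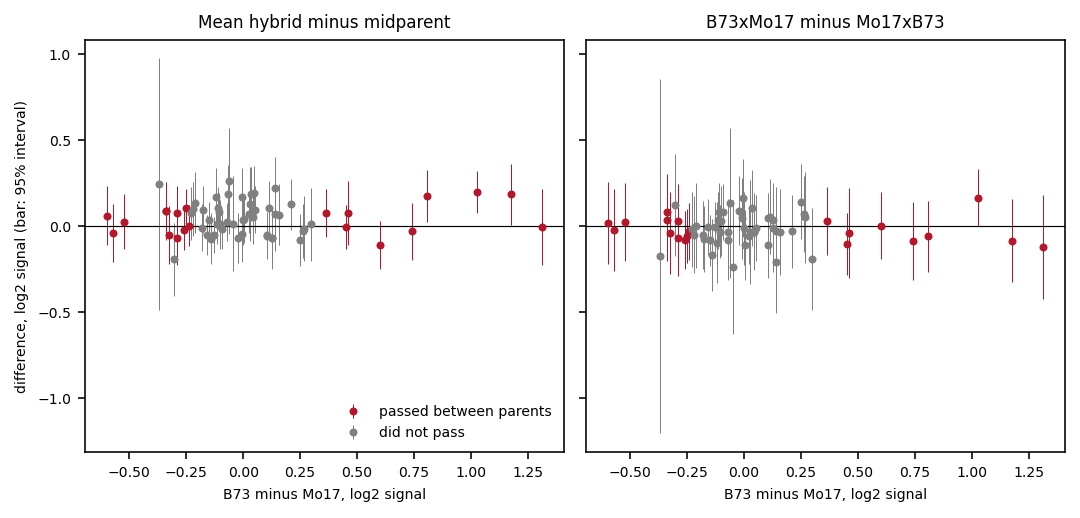
Mean hybrid minus midparent (left) and B73xMo17 minus Mo17xB73 (right) in log2 signal, against B73 minus Mo17, for the 65 chromatin probe sets tested. Bars are 95% confidence intervals, and red marks the 20 that passed between the parents. Points lie within 0.26 of 0 on the left and within 0.24 on the right, at all sizes of parental difference; the long bar is Zm.856.2.S1_at of hdt103.

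Other chromatin genes under older names were counted from a separate list of histone, Polycomb, DNA methyltransferase, centromere and retinoblastoma-related genes, with 16 of 23 probe sets tested. In B73 against Mo17, 1 was higher and 6 were lower after scaling, against 19.5% and 21.5% of all probe sets. As deposited 1 was higher and 0 lower, against 20.5% and 5.07%. The histone gene his2b5 was the one that was higher, with 5549, 4062 and 4795 in B73 and 34.4, 28.1 and 26 in Mo17. Its hybrids read 5345, 4099 and 4150.5 in B73xMo17 and 4504, 4552 and 4295 in Mo17xB73, and their mean passed above the midparent by 0.90 ± 0.12 (adjusted p = 0.00352). As deposited that difference was 0.65 and did not pass (adjusted p = 0.155). All 3 Mo17 arrays of his2b5 lay below the 40th percentile used by the filter, and the 9 arrays of the other genotypes lay above it, so no fold is given. The limma call for B73 above Mo17 (adjusted p = 5.16e-14) and the midparent call both rest on those low Mo17 signals. They show only that his2b5 signals were high in B73 and the hybrids and low in Mo17.

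On the lower side, the retinoblastoma-related gene RBR2 read 72.5, 78.9 and 73.3 in B73 and 131, 122 and 105 in Mo17, and 82.7, 98.4 and 74.7 in B73xMo17 and 108, 112 and 93.2 in Mo17xB73. It differed by -0.67 ± 0.15 after scaling (adjusted p = 0.00293) and -0.33 as deposited. The Polycomb gene fie2 had B73 arrays close together, at 343, 345 and 339, against 404, 437 and 442 in Mo17. Hybrid fie2 values were 396, 415 and 394 in B73xMo17 and 365, 401 and 432 in Mo17xB73. It differed by -0.32 ± 0.082 after scaling (adjusted p = 0.00638) and turned to 0.012 as deposited. The centromeric histone gene cenH3 read 1113, 1167 and 1222 in B73 and 1311, 1659 and 1485 in Mo17, without overlap. Hybrid cenH3 arrays gave 1457, 1466 and 1502 in B73xMo17 and 1159, 1367 and 1418 in Mo17xB73. The cenH3 difference was -0.34 ± 0.096 after scaling (adjusted p = 0.0114) and -0.009 as deposited.

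The other 3 lower calls were probe sets of 1 histone H1 gene, a linker histone other than hon101 and hon102, so they are not separate observations. Probe set Zm.6393.2.S1_x_at read 3928, 3750.4 and 4262 in B73 and 4699, 4591 and 4632 in Mo17, and 4647, 4382 and 4845 in B73xMo17 and 3973, 4309.6 and 4322 in Mo17xB73. B73 arrays lay below Mo17 arrays, by -0.22 ± 0.075 after scaling (adjusted p = 0.0285), and the value turned to 0.11 as deposited. Zm.6393.1.A1_x_at of the same gene read 3665, 3234 and 3681 in B73 and 4082, 3990.2 and 4256 in Mo17, and 4101, 3859 and 4244 in B73xMo17 and 3699.6, 3829.9 and 3995 in Mo17xB73. It gave -0.22 ± 0.076 after scaling (adjusted p = 0.0309) and turned to 0.11 as deposited. The third, Zm.6393.4.S1_x_at, gave -0.29 ± 0.11 after scaling (adjusted p = 0.0391) and turned to 0.040 as deposited. Its B73 and Mo17 arrays overlapped.

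The 11 genes that matched the name pattern without being chromatin genes were agp, 2 glutamine synthetase genes (gln3 and GLN6), dxr, glu1, NIR, gpm198, hcf106, Hcf106C, rps6 and HB133. Of their 16 probe sets 8 were tested. Of these, 2 were higher and 2 lower in B73 after scaling, against 19.5% and 21.5% of all probe sets. The beta-glucosidase gene glu1 read 572, 568 and 977 in B73 and 261, 281 and 225 in Mo17, and 334, 319 and 261 in B73xMo17 and 288, 266 and 208 in Mo17xB73. B73 replicate 3 was far above the other B73 arrays, and the hybrids lay in or near the range of Mo17. The gene was higher in B73 by 1.42 ± 0.19 on the log2 scale (adjusted p = 4.47e-05), and its hybrid mean was below the midparent of 468 by a log2 difference of -0.76 ± 0.14 (adjusted p = 0.0195). The homeobox gene HB133 (rld1) read 1429, 1201 and 1358 in B73 and 873, 1015 and 999.7 in Mo17, and 1243, 1272 and 1298 in B73xMo17 and 1197, 1174 and 1409 in Mo17xB73. Its difference was 0.47 ± 0.094 (adjusted p = 0.0012), and both glu1 and HB133 were also higher as deposited. On the lower side, hcf106, a thylakoid protein gene, read 102, 119 and 129.6 in B73 and 162, 150.0 and 145 in Mo17, and 130.1, 147 and 139 in B73xMo17 and 111, 139 and 139 in Mo17xB73. The hcf106 difference was -0.39 ± 0.13 after scaling (adjusted p = 0.0323) and -0.054 as deposited. Of 4 probe sets of the ribosomal protein gene rps6, only Zm.3699.7.S1_at passed, with 3862, 3509 and 3671 in B73 and 3930.0, 4639.6 and 4429 in Mo17, and 4318, 4263 and 4472 in B73xMo17 and 4113, 4243 and 4373 in Mo17xB73. It differed by -0.23 ± 0.078 after scaling (adjusted p = 0.0276) and turned to 0.1 as deposited, and the other 3 lay between -0.19 and 0.14.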

How the data were processed

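Signals were deposited as linear intensity values, 1 per probe set and array, made by the authors with MAS5 per the submitters' processing notes; version and scaling target: not given in the sources used here. Of 17734 probe sets, 113 controls were left out. Symbols were those of the platform annotation, and synonyms those of a RefSeq gene table (assembly Zm-B73-REFERENCE-NAM-5.0, used for names only): 8 probe sets matched by symbol and 78 by synonym. The members, lists and tests were chosen with earlier results of these data known, which is also why scaling to a common median was the main setting.

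A probe set was kept (11126 were) if 3 or more of the 12 arrays had it above their 40th percentile. Signals below the floor of 12.4, the median of the arrays' 20th percentiles, were set to it, and log2 values were fitted with 1 mean per genotype in limma 3.58.1 (R 4.3.3, eBayes with trend, 8 residual and 5.23 prior degrees of freedom), tested on simulated data. The midparent was the linear mean of the parental levels, with its SE from the delta method. Benjamini-Hochberg adjustment ran over all 11126. Values on every array are given for members with an adjusted p under 0.05 and, in families without one, for the member with the smallest p between parents; from the separate chromatin list, for at most 6 that passed. Figures used Python 3.11.15. Replicate numbers were not treated as pairs: deviations of same-numbered arrays correlated from -0.09 to 0.46 (median 0.15, 18 pairs), those of differently numbered arrays from -0.46 to 0.19 (median -0.06, 36 pairs). Ears were collected on 3 days, and no label ties a replicate number to a day. Alternatives were the deposited scale, quantile normalization, other filters and floors, other eBayes settings, a replicate block and leaving out each array.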

Additional observations from a re-analysis of the deposited data

How the results depend on the processing

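Of the 20 chromatin probe sets that passed between B73 and Mo17, 7 (hac108, hag101, hxa102, hxa103, set104, mbd108 and cha101) passed the same way in all 21 alternative settings. As deposited 11 passed (11 higher and 0 lower in B73), and 6 of the lower calls changed sign, to 0.0417 in hdt102, 0.00587 in set105, 0.0739 in brd103, 0.0821 in nfa101, 0.0406 in gtc102 and 0.0924 in nfd110, as nearly every difference gained 0.33; relative to the median of all probe sets the 11 lower calls stood at -0.55 to -0.19 either way. Quantile normalization gave 20 calls (12 higher, 8 lower) and no filter, with rescaling that moved the parental differences by -0.087, gave 21 (7 higher, 14 lower). No filter with the scaling kept, chosen after seeing the data, gave 18 (9 higher, 9 lower), and hdt102, set105 and gtc102 were lost. Fitting only the parental arrays gave 15, and hda113, set105, brd103, gtc102 and nfd110 were then lost; set105, gtc102 and nfd110 were also lost with quantile normalization, hda102, sgb101 and hdt102 with no filter and rescaling, and hdt102 and gtc102 without the trend. Leaving out 1 array gave 16 to 22 calls between the parents, 0 to 0 against the midparent and 0 to 0 between the crosses. With the replicate number as a block, 22 passed between the parents, 0 against the midparent and 0 between the crosses; every one of the 20 calls was kept, and 7 of 12 arrays correlated best with their own number. Against the midparent, 1 passed with quantile normalization and 2 with the midparent as a log2 mean, which lies below the linear mean where parents differ. Why the other settings changed the calls was not tested. Signals near the floor limit what can be said of the 5 probe sets not tested.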
